A study of Drosophila melanogaster with 6 samples.

Results

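The Hedgehog pathway members described here are 8 *Drosophila melanogaster* genes, found by name among the 14862 genes of the authors' deposited table: the ligand gene hh, its release factor disp, the receptor gene ptc, the signal transducer smo, the cytoplasmic complex genes cos, fu and Su(fu), and the transcription factor gene ci. They were chosen by the deposited fold change, adjusted p and average of ptc, which was called at a high average, and the other members were added for their place in the pathway. Their values in the same comparison are therefore a description, and nothing is tested anew.

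The study compared 3 samples of InR-DN oocytes with 3 samples of GFP control oocytes. InR is the receptor for insulin-like peptides, and InR-DN is the form with which the submitters set out to suppress insulin signalling. Each sample was RNA from 200 stage 14 oocytes, the last stage before the egg is laid, of flies fed standard food with yeast paste. The labels call the RNA polyA selected but name a kit for stranded total RNA. They name neither the driver of the transgenes nor the age of the flies. They also do not say whether samples came from separate crosses, so p-values measure only a spread between samples that may be technical. InR-DN samples are further described as progeny, and the title of the authors' deposited table speaks of embryos, neither of which is explained.

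Hedgehog is a secreted, lipid-modified signal that sets cell fates across short distances. Without it, Ptc keeps Smo inactive, and a complex of Cos, Fu and Su(fu) holds back Ci, part of which is cut into a repressor. When Hedgehog binds Ptc, Smo becomes active and full-length Ci turns on target genes, among them ptc itself. In the fly ovary the signal is best known from the germarium, where it acts on the somatic cells that give rise to the follicle cells around the oocyte.

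The authors' deposited table holds 1 log2 fold change per gene and no value per sample, so levels in the InR-DN and the GFP control oocytes cannot be set side by side, and the depth of each sample is unknown. Its header leaves the numerator unnamed. Fold changes are given as positive or negative, as deposited, and are not assigned to either group. A gene was called when the adjusted p of the authors' likelihood ratio test was under 0.05. The SE that the test implies is the size of the log2 fold change over the square root of the likelihood ratio, and the 95% intervals reach 1.96 of these SE to either side. They rest on the authors' model and are not a spread measured between samples.

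Of the 8 members 1 was called, ptc, with a positive fold change. Among all 13080 tested genes, which are those with a likelihood ratio above 0, 5.10% were called, namely 2.61% as positive and 2.48% as negative, and since ptc was picked out for its call nothing is read from that share. The log2 fold changes of the other 7 members ran from -0.12 to 0.62 in the authors' deposited table, and none had an unadjusted p under 0.05. The median over the 8 was 0.02, against 0.03 over all tested genes.

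**Figure D1:**
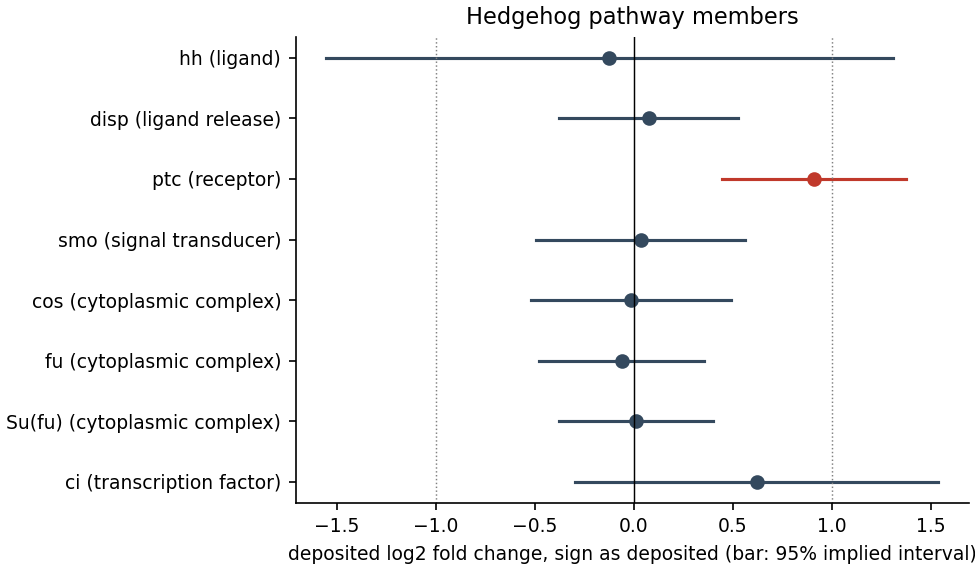
Log2 fold change of each Hedgehog pathway member in the authors' deposited table (points, x axis) with its 95% implied interval (bars), one gene per line, the called gene in red and genes not called in dark grey. Dotted lines mark a 2-fold change in either direction. The interval of ptc runs from 0.45 to 1.38 and does not reach 0, and those of hh and ci are the widest.

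The ligand gene hh was listed in the authors' deposited table at a log2 fold change of -0.12 and an adjusted p of 1, and its implied SE was 0.73. Its 95% interval ran from -1.55 to 1.31, so a change of 2-fold in either direction lay inside it. At that SE a log2 fold change of about 2.23 would have been needed for a call. The value of hh therefore gives little information on whether the ligand transcript differed. disp encodes a membrane protein with a sterol-sensing domain, related to Ptc, which sets the lipid-modified ligand free from the cells that make it. The authors' deposited table has disp at 0.08 on the log2 scale, and its interval, from an implied SE of 0.23, ran from -0.38 to 0.53.

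The receptor gene ptc had a log2 fold change of 0.91, a likelihood ratio of 14.8, an unadjusted p of 0.00012 and an adjusted p of 0.0041 in the authors' deposited table. This is a 1.88-fold difference, with a 95% implied interval from 1.36-fold to 2.60-fold. smo encodes the membrane protein that Ptc restrains. Its fold change in the authors' deposited table was 0.03 on the log2 scale, and its interval, from an implied SE of 0.27, ran from -0.50 to 0.56, all within a 2-fold change. The intervals of ptc and smo overlap between 0.45 and 0.56, and the difference between these genes was not tested.

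The 3 members of the cytoplasmic complex had deposited log2 fold changes close to 0. cos encodes a kinesin-related scaffold that brings the kinases to Ci, and the authors' deposited table puts it at -0.02, with an interval from -0.52 to 0.49. fu encodes a serine/threonine kinase that acts downstream of Smo, and has a value of -0.06 in the authors' deposited table, where its interval ran from -0.48 to 0.36. Su(fu), whose protein binds Ci and holds it in the cytoplasm, has 0.01 in that column of the authors' deposited table and an interval from -0.38 to 0.40. Implied SE were 0.26 for cos, 0.21 for fu and 0.20 for Su(fu), and a log2 fold change of 0.79, 0.65 and 0.61, in that order, would have been needed for a call at those SE.

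ci, which encodes the zinc finger transcription factor of the pathway, had the second largest fold change of the members. The authors' deposited table has it at 0.62, a 1.54-fold difference, and gives an unadjusted p of 0.19 and an adjusted p of 0.93. Its implied SE was 0.47. Its interval ran from -0.30 to 1.54 and held both no change and the value of ptc. In all, 5 of the 8 members had intervals that stayed below a 2-fold difference both ways, against 53.7% of all tested genes with an interval. Among such genes with an average at or above that of hh, the lowest member, the share was 93.0%. The exceptions among the members were ptc, hh and ci.

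**Figure D2:**
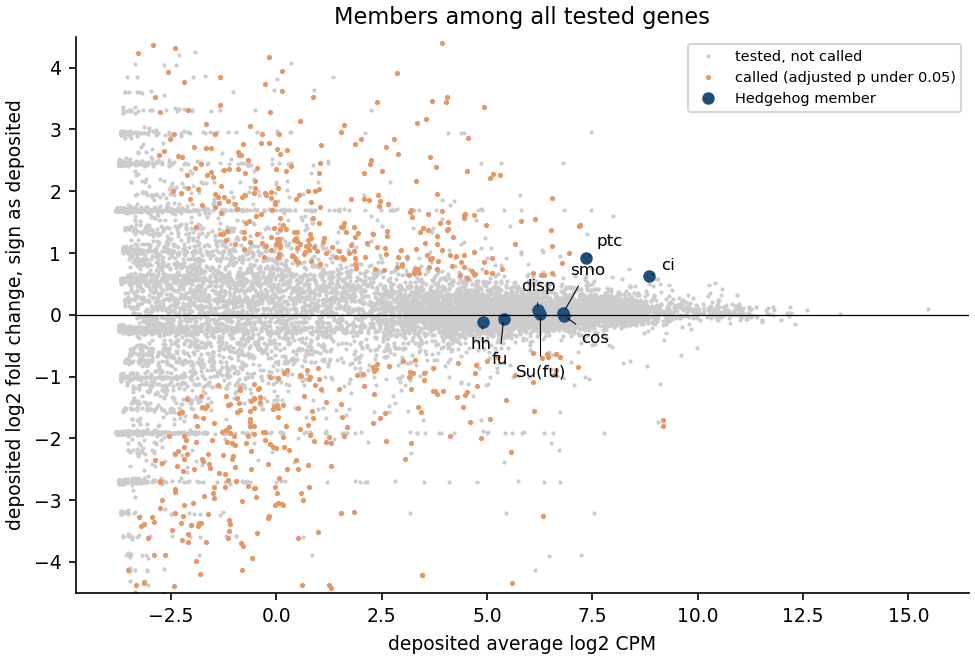
All tested genes of the authors' deposited table by log2 fold change (y axis, sign as deposited) and average log2 CPM (x axis), with called genes in orange, genes not called in grey and the Hedgehog pathway members as labelled blue points. ptc and ci lie at the upper edge of the cloud at their averages and the other members lie near 0, and 100 genes beyond 4.5 in either direction are outside the axis.

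Average log2 CPM (CPM are counts relative to the size of the library) was 4.90 for hh, 5.39 for fu, 6.20 for disp and 6.27 for Su(fu) in the authors' deposited table. The remaining averages were 6.81 for smo, 6.83 for cos, 7.35 for ptc and 8.84 for ci, also from the authors' deposited table. Divided by exon length in the Ensembl release 115 annotation of assembly BDGP6, the average of ci was the highest at 81.3 CPM per kilobase, followed by Su(fu) at 48.2. ptc, smo and cos lay close together on that scale at 29.5, 28.0 and 23.9 CPM per kilobase, and disp, fu and hh were lowest at 15.0, 12.9 and 12.6 CPM per kilobase. No spread over samples can be put on these averages. Which libraries entered them is not stated, and the authors' deposited table puts the segment polarity gene slp2 at an average log2 CPM of 5.86 although its likelihood ratio is 0. The averages are therefore not known to be levels in the compared oocytes. Comparisons with genes of similar or higher average, before and below, match on this deposited average and not on known reads in those oocytes.

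At deposited averages like that of ptc few genes were called. Within 0.5 log2 CPM of ptc there were 1118 tested genes with a median log2 fold change of 0.03, and 5 of them, or 0.447%, were called, 4 positive and 1 negative. In that range 6 genes had a higher fold change than ptc, and ptc ranked 3 by p. Besides ptc, the called genes in this range were Aldh, an aldehyde dehydrogenase gene, at 1.45, CG18446 at 1.00, Cks30A, which encodes a partner of a cell cycle kinase, at 1.44 and the small heat shock protein gene Hsp23 at -0.84 on the log2 scale of the authors' deposited table. Of the 1270 tested genes with an average above that of ptc, 2 were called, and the next called gene below it, Aldh, was listed at 7.20 log2 CPM in the authors' deposited table.

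The 5 tested genes nearest to ptc in fold change and average were CG15628, KP78a, KP78b, E(spl)m7-HLH and CG7433, and none of them was called. CG15628, the nearest, had a log2 fold change of 0.89 at an average log2 CPM of 7.36 in the authors' deposited table, almost the values of ptc, but an adjusted p of 0.61. Its implied SE was 0.50, against 0.24 for ptc. KP78a and KP78b, a pair of related kinase genes, were both at 0.74 with 1 shared average of 7.50 in the authors' deposited table, so reads shared between them were not excluded. E(spl)m7-HLH, a Notch target gene, and CG7433 have 0.62 and 0.59 in the authors' deposited table and implied SE of 0.48 and 0.22.

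The implied SE separated the members further. For ptc 65.1% of genes of similar average had a smaller SE, and for smo, cos and disp the shares were 77.0%, 72.3% and 58.3%. fu and Su(fu) were estimated more tightly than most, with smaller SE in 32.2% and 32.1% of similar genes. By contrast, 98.0% of the genes within 0.5 log2 CPM of hh and 96.3% of those near ci had a smaller SE, where the median SE were 0.23 and 0.25. For hh and ci the lack of a call thus came with wide intervals. The intervals of disp, smo, cos, fu and Su(fu) lay within a 2-fold change, though smo, cos and disp had larger SE than most genes of their average.

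**Figure D3:**
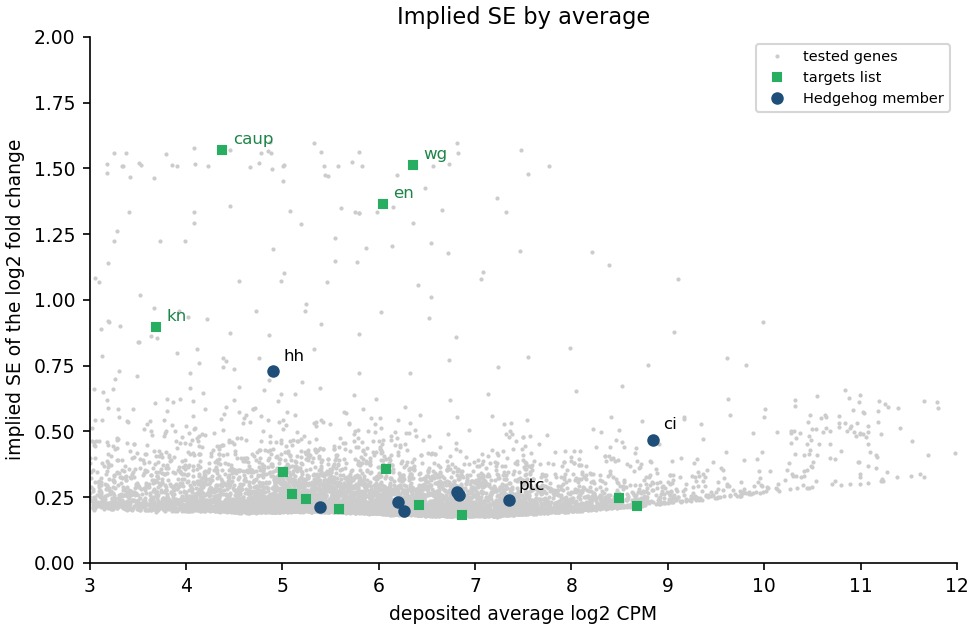
Implied SE of the log2 fold change (y axis) against the average log2 CPM that the authors' deposited table lists (x axis) for tested genes with an average log2 CPM from 3 to 12, with Hedgehog pathway members as blue circles and genes of the targets list as green squares. hh, at 0.73, and ci, at 0.47, lie above most genes of their average, and wg, en, caup and kn lie higher still.

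Genes that lie inside or across the members were looked at because the labels name a stranded kit but not whether reads were counted by strand. ptc lies on chromosome arm 2R, and the noncoding RNA gene CR44281 lies wholly inside it on the opposite strand, with no exon in common in the Ensembl BDGP6 annotation. CR44281 was itself called, with a log2 fold change of 1.71, an adjusted p of 0.00095 and an average of -0.94 log2 CPM in the authors' deposited table, and its implied SE was 0.40. Both genes thus had positive calls, ptc at a high and CR44281 at a low average, and reads from unspliced ptc transcripts cannot be told apart from reads of CR44281 if strand was not used. CR44281 followed ptc in the order of start sites. The tested gene before ptc, CG8635, was at 0.03 and Acsl, an acyl-CoA synthetase gene and the first beyond the end of ptc, at 0.08 in the authors' deposited table. Neither was called, and Acsl was added after the data were seen.

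ci, on chromosome 4, shares exon sequence with the antisense gene CR43957 in the same annotation. The authors' deposited table has CR43957 at 0.96 on the log2 scale, with an unadjusted p of 0.026 and an adjusted p of 0.32, and its implied SE was 0.43. Its sign was that of ci. Exons of smo overlap those of CG17078 and CG11601 on the opposite strand, which stood at 0.02 and -0.01 in the authors' deposited table. Exons of fu overlap those of CG6696, which the authors' deposited table lists at an average of only -3.35 log2 CPM. Exons of disp overlap those of CG34287, which lies inside disp on the opposite strand and was not found in the authors' deposited table. The members lie on chromosome arms 2L (smo), 2R (ptc and cos) and 3R (hh, disp and Su(fu)), on X (fu) and on 4 (ci), and their longest coding sequences in the Ensembl annotation run from 468 codons in Su(fu) to 1397 in ci.

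Beyond the members, 60 other genes of the pathway and its targets, in 5 lists, were all tested. By the authors' likelihood ratio test 0 of them were called, against 5.10% of all tested genes. Among the 5294 tested genes with an average at or above that of hh, the share called was 0.926%. Nothing is therefore read from the lack of calls, here or in the single lists below. Before adjustment 3 of the 60 had a p under 0.05, all positive, against 11.4% of all tested genes in either direction. That share is over genes of any average and was not computed at averages like these, so nothing is read from it. The median log2 fold change of the 60 was 0.07, against 0.03 over all tested genes. A further list held 4 genes of proteins that share a sterol-sensing domain with Ptc, and 1 of these was called. Over all 64 genes, intervals lay within a 2-fold change for 50 of the 62 that had one, or 80.6%, against 53.7% of all tested genes with an interval. That contrast turned round among genes with an average at or above that of hh, the lowest member, where the shares were 87.5% of 56 such genes and 93.0% of 5205 tested genes.

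Genes that make, release and spread the ligand held no call among 12. They had a median of 0.12, and 11 were positive. Rfabg, the precursor of the lipoprotein on which Hedgehog travels, had the highest average of them and stood at 0.14 in the authors' deposited table. The 1 gene with an unadjusted p under 0.05 was the glypican gene dally, which the authors' deposited table has at 0.48 and an adjusted p of 0.44. The co-receptor genes ihog and boi, whose proteins bind Hedgehog together with Ptc, have values of -0.06 and 0.09 in the authors' deposited table, where both had an implied SE of 0.19. The other glypican gene, dlp, was at 0.12 and rasp, which encodes the acyltransferase that adds palmitate to Hedgehog, at 0.24 in the authors' deposited table. dally was named after its value was seen, as were ihog, boi, dlp and rasp, which were named for their roles.

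The kinases and phosphatases that act on Smo and Ci held no call among 14, with no unadjusted p under 0.05 and a median of 0.03. The deposited log2 fold changes ran from -0.16 to 0.18, and all 13 intervals lay within a 2-fold change. mts, which encodes the catalytic subunit of protein phosphatase 2A and had the highest average, stood at 0.00094 in the authors' deposited table. The ubiquitin and Ci processing genes gave the same counts, with no call among 14, no unadjusted p under 0.05, a median of 0.01 and all 13 intervals within a 2-fold change. rdx, whose protein directs full-length Ci to degradation, had the highest average of these genes and stood at -0.03 in the authors' deposited table. Of 5 Ci cofactor genes none was called, and 0 had p under 0.05 before adjustment. nej, which encodes the histone acetyltransferase that Ci uses as a co-activator, had their highest average, and the authors' deposited table has it at 0.58 and an adjusted p of 0.63, with an implied SE of 0.33.

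**Figure D4:**
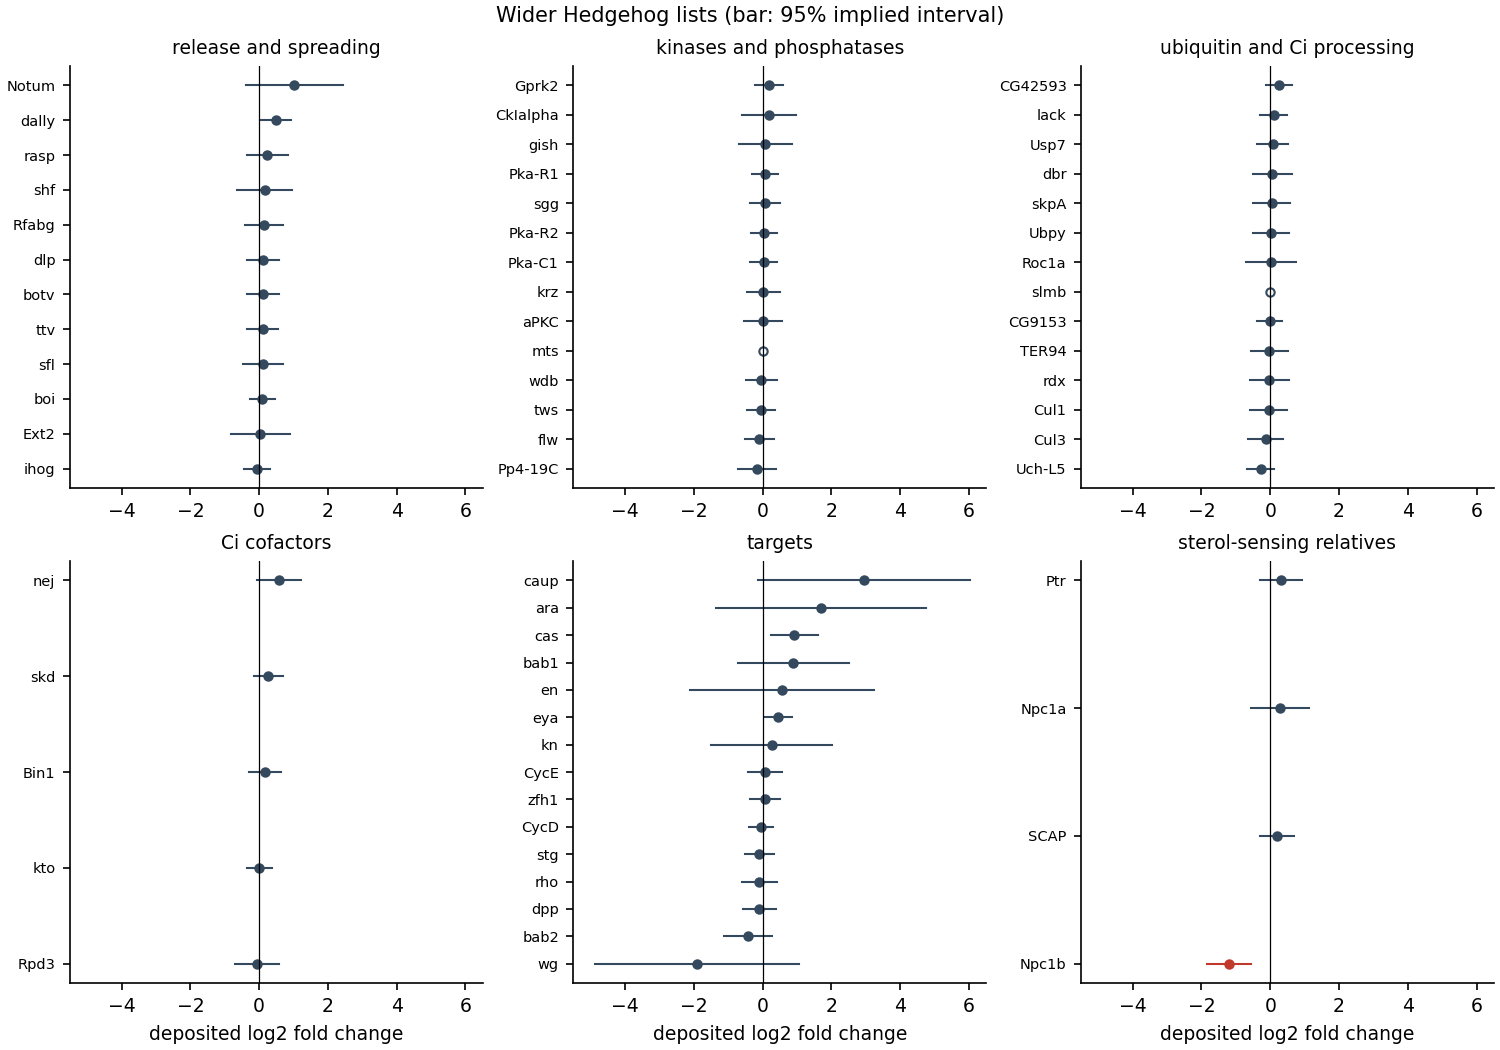
Log2 fold change in the authors' deposited table (points, x axis) with the 95% implied interval (bars) for the genes of 6 wider Hedgehog lists, one panel per list, genes ordered by fold change, called genes in red and genes with a likelihood ratio too small for an interval as open circles. The kinase and ubiquitin lists lie close to 0 with short bars, the targets list is spread widely, and Npc1b, at -1.20, is the 1 called gene.

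The 15 genes of the targets list, which Hedgehog is known to regulate in the embryo, the wing or the ovary, were spread more widely and none was called. They ran from -1.91 for wg to 2.94 for caup in the authors' deposited table, with 9 positive, a median of 0.07 and 7 of 15 intervals within a 2-fold change. stg, the mitotic phosphatase gene with the highest average among them, stood at -0.09 in the authors' deposited table. The unadjusted p was under 0.05 for cas and eya, which encode regulators of early follicle cell fates. The authors' deposited table has them at 0.93 and 0.45, the sign of ptc, and at adjusted p of 0.13 and 0.32. dpp, a growth factor gene and classic wing target, has -0.10 in the authors' deposited table and an interval from -0.58 to 0.38, and was named after its value was seen.

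Several targets with large fold changes shared their values with other genes. wg, a Wnt ligand gene, stood at -1.91 in the authors' deposited table. Among 196 other tested genes with the same log2 fold change within 0.01, 192 also had the same likelihood ratio within 5%. Their average log2 CPM ran from -3.80 to 7.77 in the authors' deposited table. By the same measure, 129 of 155 such genes matched ara, at 1.70, on the likelihood ratio as well, and 23 of 25 matched caup, at 2.94 in the authors' deposited table. These homeobox genes and wg had implied SE of 1.56, 1.57 and 1.51. Among the members, 0 of 36 genes with the fold change of ptc matched its likelihood ratio, 1 of 231 did for hh and 3 of 49 for ci. Near a fold change of 0 many genes lie close together, and the counts were 46 of 414 for disp, 21 of 446 for smo, 13 of 442 for cos, 33 of 358 for fu and 19 of 482 for Su(fu). Genes that share the values of wg and ara form horizontal rows in the plot of all tested genes. How many reads lay behind these values was not tested.

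In a list drawn up for segment polarity, the process from which the hedgehog gene is known, 8 of 10 genes were tested. Of these 1 was called, against 5.1% of all tested genes. The called gene was odd, an early zygotic repressor gene at 2.27 in the authors' deposited table. It is usually classed as a pair-rule gene and not as a segment polarity gene. arm, which encodes beta-catenin and had the highest average, was at 0.02. gsb missed the threshold narrowly, with an adjusted p of 0.0502 at a log2 fold change of -4.13 and an implied SE of 1.35. Of 5 other tested genes with its fold change within 0.01, 4 also had its likelihood ratio within 5%. Those 4 had averages from -3.53 to -3.08 log2 CPM, against 6.14 for gsb, and how many reads lay behind its value was not tested. gsb was named after its value was seen, like slp2 and gsb-n, which had a likelihood ratio of 0 in the authors' deposited table. wg and en stand in this list as well.

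The list of proteins with a sterol-sensing domain gave 1 call among 4 genes, a negative one, against 2.48% of all tested genes called negative. Npc1b, whose protein takes up sterols in the midgut, has -1.20 in the authors' deposited table, an adjusted p of 0.0067 and a low average of -0.43 log2 CPM, and its implied SE was 0.32. Ptr, whose protein is related to Ptc, had the highest average of the 4 genes and has 0.31 in the authors' deposited table, where its interval ran from -0.30 to 0.92. Npc1a and SCAP were not called, and the list median was 0.25.

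Markers of the oocyte and of other cells were set beside ptc. The 5 oocyte markers osk, bcd, nos, grk and vas were not called and their intervals all lay within a 2-fold change, with averages from 3.11 to 9.76 log2 CPM in the authors' deposited table. The 10 follicle cell and eggshell markers had averages from 7.95 to 12.3 log2 CPM in the authors' deposited table and none was called. Their intervals were wider, and 6 of the 10 did not stay within a 2-fold change. Of 7 markers of the early somatic ovary, where ptc is known to be used, all were positive and none was called. The positive sign was not particular to them. All 5 oocyte and all 4 muscle markers were positive too, as were 9 of the 10 follicle cell and eggshell markers. Of the 3 neuronal and the 3 haemocyte markers, 2 each were negative. Of the 7, 3 had an unadjusted p under 0.05 with a positive fold change, as had 6.43% of all tested genes. That share is over genes of any average and was not computed at averages like theirs. The median log2 fold change of the 7 was 0.48, with values from 0.26 to 0.93 in the authors' deposited table. Of these, cas, eya and bab1 also stand in the targets list. All 5 gut markers were called positive, from 4.39 to 8.55, as were 2 of 4 fat body markers in the authors' deposited table. Among all tested genes 2.61% were called positive. Npc1b, which acts in the midgut but was not on the gut marker list, was called negative at -1.20. Of 3 haemocyte markers Pxn was called positive at 1.64, while NimC1 was at -3.18, with an unadjusted p of 0.039, and Hml at -0.03 in the authors' deposited table, and the median was -0.03. None of 4 muscle markers, which had a median of 0.42, and none of 3 neuronal markers was called. Of 5 early zygotic markers 3 were tested and 1, zen, was called positive. Gut averages ran from 1.57 to 3.93 and fat body averages from -3.44 to -0.28 log2 CPM in the authors' deposited table. The part of other cells in the value of ptc was not tested, levels per group could not be summed, and in such pools fewer cells of a type and less RNA per cell cannot be told apart.

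Calls rest on the authors' likelihood ratio test as deposited. With Holm's stricter adjustment of the same p-values, ptc and Npc1b each had an adjusted p of 1 and lost their calls. Whether 1 library carried the difference in ptc cannot be seen from a table of group comparisons.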

How the data were processed

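RNA of 6 samples was sequenced, with FastQC, Bowtie and TopHat as tools per the submitters' processing notes. A build, an annotation and a counting program are not stated there. The values come from the authors' deposited table. Per the file headers, the authors deposited for every gene the p-value before and after adjustment, the likelihood ratio as a score, the average log2 CPM and the log2 fold change.

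The deposited p-values differed from the chi-square tail of the score, with 1 degree of freedom, by at most 6.4e-15, and the adjusted ones from a Benjamini-Hochberg adjustment over all 14862 genes by at most 3.6e-15. The 1782 genes with a likelihood ratio of 0 were not counted as tested. Implied SE were computed where the likelihood ratio was above 0.0001, and re-adjustments were tested on simulated data. The planned count test was not used, since the table holds no counts.

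The members and lists were chosen with earlier results of these data known. Listed genes were matched by name, and 7 of the wider lists through synonyms listed by RefSeq for assembly Release 6 plus ISO1 MT, which also gave the order of genes. Sap18 was not matched, and 1 other listed gene is not reported here. No coordinates or sequences are given. Named genes were all members, the called gene and the one of highest average in each wider list, and those around ptc by average, by distance in fold change and average, and by position. Others were named after their values were seen. The work used matplotlib 3.10.9, scipy 1.17.1, numpy 2.4.6, pandas 2.3.3 and Python 3.11.15.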

Additional observations from a re-analysis of the deposited data

How the results depend on the processing

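ptc kept its call when the adjustment was limited to tested genes (adjusted to 0.0036), to genes of average log2 CPM of at least 0 (0.0046) or at least 3 (0.010), at a threshold of 0.01, and over genes within 0.5 log2 CPM of its average (0.044), the last chosen after seeing the data. These settings all reused the deposited p-value behind the call for which ptc was chosen, so they add no support for its difference. With Holm's adjustment, ptc had an adjusted p of 1, and 0 of the 8 members and 0 of the 64 wider genes were called. Among the wider genes, 0 were called without genes of average log2 CPM below 0 or below 3, a limit that removes Npc1b, and 4 passed an unadjusted p under 0.05, also chosen after seeing the data. Npc1b had an adjusted p of 1 with Holm's adjustment. The count models and the fits without single replicates were not run, for want of values per sample. No paired analysis was possible because only a comparison of groups was used. The depth of the libraries is unknown.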
